A study of Mus musculus with 2 samples.

Results

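The miR-23/24/27 miRNAs of serum extracellular vesicles (EVs), membrane-bound particles shed by cells into the blood, are described here in iFIRKO and control mice. They are the arms of a pair of paralogous clusters, miR-23a/27a/24-2 and miR-23b/27b/24-1. A total of 10 of the 1847 miRNAs in the tables were taken by name, 5 of them 3p arms (mmu-miR-23a-3p, mmu-miR-23b-3p, mmu-miR-24-3p, mmu-miR-27a-3p and mmu-miR-27b-3p) and 5 of them 5p arms (mmu-miR-23a-5p, mmu-miR-23b-5p, mmu-miR-24-1-5p, mmu-miR-24-2-5p and mmu-miR-27b-5p), and the mouse prefix mmu is left out below. All 10 had over 10 counts in both libraries, so none was removed as too rare to read. The 5p arm of Mir27a, miR-27a-5p, was measured too and is used below to complete its hairpin.

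The iFIRKO mice carried Adipoq-CreERT2, a Cre recombinase under the adiponectin promoter that tamoxifen switches on, and Insr flox/flox, so that the insulin receptor gene is deleted in adipocytes. The labels give the controls as WT, whereas the study's methods describe them as flox/flox mice without Cre. All mice were 7-week-old males, all received 100 mg/kg tamoxifen on 5 consecutive days, controls included, and all were sampled on day 3 after the last dose. Each group had 1 library, prepared from serum pooled from several mice, so no spread between animals could be estimated and no test between genotypes was possible. The Cre acts in adipocytes, but serum EVs come from many cell types, and these libraries do not separate them. The tables list no EV protein and no Insr transcript, so neither the vesicles nor the knockout could be checked, and the control library and the iFIRKO library are named below by their labels alone. The labels themselves are in doubt. The study describes the bulk of serum EV miRNAs as lower in iFIRKO mice and follows up miR-451a, miR-486a-3p and miR-144-3p as higher, whereas the deposited tables, read by their labels, show the opposite in both respects. Quantitative RT-PCR on individual serum samples, as the study reports it, also gave the followed-up miRNAs as higher in iFIRKO mice. Read by the labels, the ratios of iFIRKO over control were 0.409 for miR-451a, 0.549 for miR-486a-3p and 0.506 for miR-144-3p. All of these were below 1 under each scaling used. For the bulk of miRNAs, the opposite direction rests on the rarer ones and on the deposited scale. Of the 118 with a mean count over 1000, 70 were lower in the iFIRKO library. With TMM scaling, an alternative used below, 956 of all 1847 were higher there and 891 lower. The values alone cannot tell whether the tables were exchanged. If they were, every ratio below would have to be replaced by its inverse and every direction turned.

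A miRNA gene is transcribed as a long precursor, a hairpin is cut out of it, and either arm of the hairpin (5p or 3p) can be loaded into an Argonaute protein. The loaded miRNA finds its target mRNAs mainly through its seed, bases 2 to 8 from the 5′ end. For all 3 families the 3p arm is the usual guide. The clusters are known from endothelial cells, where miR-23 and miR-27 act on vessel growth, and miR-27 is known as an inhibitor of adipocyte differentiation that acts on Pparg. miR-24 is known from cell cycle and survival control in many tissues.

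In the annotation (GRCm38), the first cluster lies on the plus strand of chromosome 8 from 84208518 to 84208921, a span of 404 bp. Mir23a (84208518 to 84208592) and Mir27a (84208672 to 84208758) overlap no other annotated gene, and Mir24-2 (84208815 to 84208921) overlaps the first bases of the long non-coding RNA Gm26532. The second cluster lies on the plus strand of chromosome 13 from 63300484 to 63301275, a span of 792 bp, inside the protein-coding gene 2010111I01Rik on the same strand and inside Fancc on the opposite strand. Mir23b (63300484 to 63300557) is intronic, whereas Mir27b (63300712 to 63300784) and Mir24-1 (63301208 to 63301275) also overlap exons of 2010111I01Rik transcripts that are annotated as nonsense-mediated decay, retained intron or processed transcript. On the minus strand, Mir3074-2 and Mir3074-1 lie opposite Mir24-2 and Mir24-1.

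**Figure D1:**
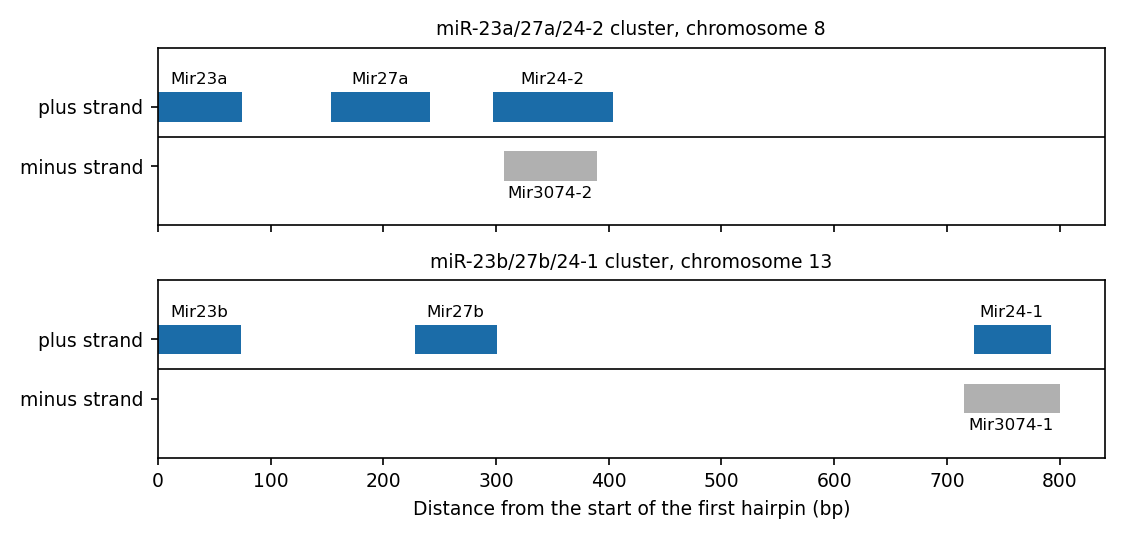
Hairpins of both clusters drawn to scale as bars, with the distance from the start of the first hairpin in bp on the x axis and the strand on the y axis. The order 23, 27, 24 is the same in both clusters, but the second cluster spans 792 bp against 404 bp, mainly through the gap of 423 bp between Mir27b and Mir24-1, and the grey hairpins of miR-3074 lie opposite those of miR-24.

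RefSeq gave the mature sequence for 9 of the 10 miRNAs, all but miR-23b-3p. They are shown 5′ to 3′ with the seed in capitals, because the seed defines which arms can share targets and because near-identical arms are hard to tell apart by sequencing.
miR-23a-3p: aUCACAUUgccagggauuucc
miR-24-3p: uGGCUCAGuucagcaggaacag
miR-27a-3p: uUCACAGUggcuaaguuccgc
miR-27b-3p: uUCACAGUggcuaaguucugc
miR-23a-5p: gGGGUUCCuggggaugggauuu
miR-23b-5p: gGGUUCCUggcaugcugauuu
miR-24-1-5p: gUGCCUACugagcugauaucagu
miR-24-2-5p: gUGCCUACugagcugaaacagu
miR-27b-5p: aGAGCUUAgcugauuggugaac

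miR-27a-3p and miR-27b-3p share their seed and differ by a single substitution, C19U, counted from the 5′ end of miR-27a-3p. miR-24-1-5p and miR-24-2-5p share their seed and their first 16 bases. miR-24-3p is 1 sequence with 2 genes, so its counts cannot be divided between the clusters, and its reads come from Mir24-1, Mir24-2 or both. The 5p arms of Mir23a and Mir23b have different seeds, being 1 base out of step at the 5′ end, and differ by an edit distance of 5. How the authors assigned reads that match more than 1 arm is not given in the sources used here, so the division of counts between miR-27a-3p and miR-27b-3p is uncertain, as is that between the other near-identical arms.

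The libraries had depths of 3817902 counts (control) and 2233498 counts (iFIRKO), recovered from the deposited values, and levels are given as counts per 1000000 of that depth (CPM). Intervals in brackets are 95% intervals that cover counting error only. Of all miRNAs, 88.1% took a larger share of the iFIRKO library than of the control library, most of them rare ones, a direction that rests on the doubted labels. The median log2 ratio of all 1847 miRNAs (iFIRKO over control) was 0.88, but it was 1.01 for a mean count of the libraries from 10 to 100, 0.53 from 100 to 1000, and -0.07 over 1000. Each arm is therefore set beside the class of its own abundance.

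The 10 miRNAs together made up 2.79% of the control library (Wilson interval 2.77 to 2.81) and 2.43% of the iFIRKO library (2.41 to 2.45). The ratio of these shares was 0.869 (0.860 to 0.878). Nearly all of these counts were 3p arms, 99.6% in the control library and 99.2% in the iFIRKO library. The 3 families contributed similar amounts in the control library, with 34.0% of the counts from miR-23 3p arms, 31.9% from miR-24-3p and 33.6% from miR-27 3p arms, and 35.2%, 31.0% and 32.9% in the iFIRKO library. These values are shares of a library, so a lower share can also come from a larger share of other miRNAs. With the liver miRNA miR-122-5p left out of the depth, an alternative chosen after seeing the data, the ratio was 0.952. miR-16-5p, the most abundant miRNA in both libraries, stayed in that depth. It went the opposite way to miR-122-5p, with 260382 CPM in the control library and 190830 CPM in the iFIRKO library. A depth without both was not tried. Nanoparticle tracking in the study gave comparable EV concentrations in iFIRKO and control mice. It was run on EVs isolated by ultracentrifugation, whereas the RNA of these libraries came from EVs isolated with a commercial kit. Fewer vesicles of one kind, fewer copies in each and a larger share of other miRNAs cannot be told apart here.

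The 3p arms were lower in the iFIRKO library on the deposited scale, 5 of 5, by modest amounts. With the labels exchanged they would be higher, with ratios from 1.09 to 1.34. miR-24-3p, the arm both clusters encode, was counted 33994 times (8904 CPM) in the control library against 16801 times (7522 CPM) in the iFIRKO library, for a ratio of 0.845 (0.829 to 0.861). miR-23a-3p was counted 32792 times (8589 CPM) against 17576 times (7869 CPM), for a ratio of 0.916 (0.900 to 0.933), the smallest departure from 1 among the 3p arms. miR-27b-3p was counted 22641 times (5930 CPM) against 11657 times (5219 CPM), for a ratio of 0.880 (0.861 to 0.900). These are the 3 most abundant arms, and their intervals all lie below 1. miR-27a-3p was counted 13182 times (3453 CPM) against 6191 times (2772 CPM), for a ratio of 0.803 (0.779 to 0.827). miR-23b-3p, the least abundant 3p arm, was counted 3470 times (909 CPM) against 1519 times (680 CPM), and with a ratio of 0.748 (0.704 to 0.795) it was the lowest of the 5.

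None of the 5 passed the study's threshold of 1.5-fold. Of the 118 miRNAs with a mean count over 1000, the class that holds all 5 of them, 9.32% were over 1.5-fold lower and 2.54% over 1.5-fold higher. In that class 70 of 118 were lower by any amount, so the direction of the 3p arms was that of the larger part of the class. Counted from the lowest log2 ratio, miR-23b-3p was at place 29 of 118, miR-27a-3p at 38, miR-24-3p at 42, miR-27b-3p at 46 and miR-23a-3p at 52, all below the middle of the class but none near its end. The median log2 ratio of the 3p arms was -0.24, against -0.07 for the class and 0.88 for all miRNAs. With TMM scaling, which lowers every log2 ratio by 0.85, all 5 were over 1.5-fold lower, as were 102 of the 118. CPM are shares of a library, and the liver miRNA miR-122-5p alone took 109463 CPM of the control library and 186751 CPM of the iFIRKO library. miR-16-5p went the other way, with 260382 and 190830 CPM. With miR-122-5p left out of the depth, an alternative added after seeing the data, miR-23a-3p had a ratio of 1.003, the other 3p arms ranged from 0.819 to 0.964, and 4 of the 5 were lower, as were 50 of the 118.

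**Figure D2:**
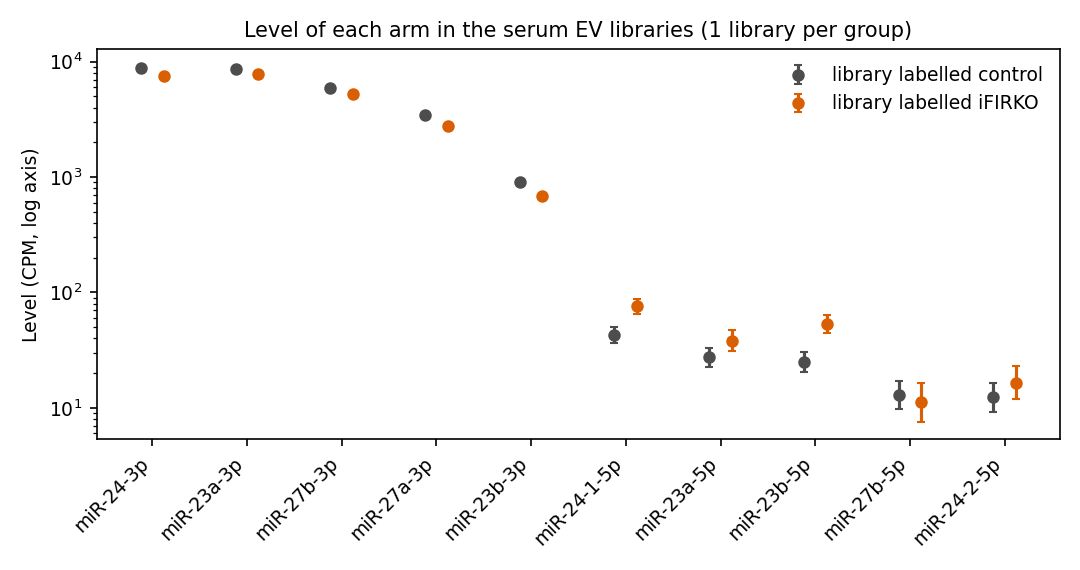
Level of each of the 10 arms in CPM on a log axis, with 1 point per library (grey, control library; orange, iFIRKO library) and 95% Wilson intervals for counting error. The 3p arms lie between 680 and 8904 CPM and the 5p arms between 11.2 and 75.7 CPM, and the orange point is the lower one for each 3p arm and for miR-27b-5p.

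The 5p arms, the strands usually discarded, were rare, and 4 of the 5 were higher in the iFIRKO library as deposited. So were 88.1% of all miRNAs, 1298 of the 1350 with a mean count from 10 to 100, and 236 of the 302 from 100 to 1000. miR-23b-5p was counted 95 times (24.9 CPM) in the control library against 118 times (52.8 CPM) in the iFIRKO library, for a ratio of 2.12 (1.61 to 2.81). miR-24-1-5p was counted 163 times (42.7 CPM) against 169 times (75.7 CPM), for a ratio of 1.77 (1.42 to 2.21). Both arms come from the cluster on chromosome 13. miR-23a-5p was counted 105 times (27.5 CPM) against 85 times (38.1 CPM), for a ratio of 1.38 (1.03 to 1.86). miR-24-2-5p was counted 47 times (12.3 CPM) against 37 times (16.6 CPM), and its ratio of 1.35 had an interval (0.850 to 2.12) that included 1. The third arm of the chromosome 13 cluster, miR-27b-5p, was counted 49 times (12.8 CPM) against 25 times (11.2 CPM), for a ratio of 0.872, with an interval (0.516 to 1.44) that also included 1, so its direction was not detectable at this depth.

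At the 1.5-fold threshold 2 of the 10 arms were higher, miR-23b-5p and miR-24-1-5p, where 66.3% of all miRNAs were, and 0 of the 10 were lower, where 3.03% of all miRNAs were. Both higher arms belong to the class with a mean count from 100 to 1000, in which 47.0% were over 1.5-fold higher and 2.32% over 1.5-fold lower. The other 5p arms belong to the class from 10 to 100, in which 76.7% were over 1.5-fold higher and 0.444% over 1.5-fold lower, and none of the 3 was. The log2 ratios of miR-23a-5p and miR-24-2-5p, 0.47 and 0.43, were below the median of that class, 1.01, and miR-27b-5p, at -0.20, was at place 37 of 1350 from the lowest. The directions of the 5p arms depended on the scaling: with TMM scaling miR-24-1-5p had a ratio of 0.980 and only miR-23b-5p, at 1.17, stayed above 1. Scaled to miR-148a-3p, the reference miRNA of the study, the same 4 arms were above 1.

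**Figure D3:**
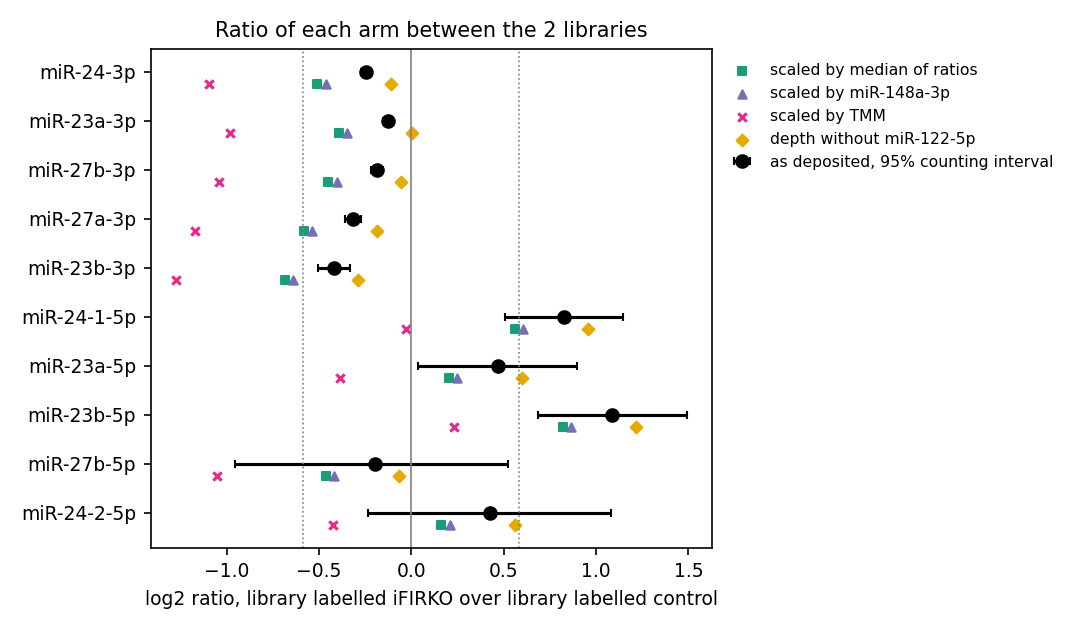
Log2 ratio of each arm, iFIRKO library over control library, as deposited with its 95% counting interval (black) and under 4 other scalings, with dotted lines at 1.5-fold in either direction. The markers of the 3p arms lie left of 0 except for miR-23a-3p with miR-122-5p left out of the depth, whose ratio is 1.003, whereas the markers of miR-24-1-5p, miR-23a-5p and miR-24-2-5p fall on both sides of 0 because TMM scaling moves them below it.

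**Figure D4:**
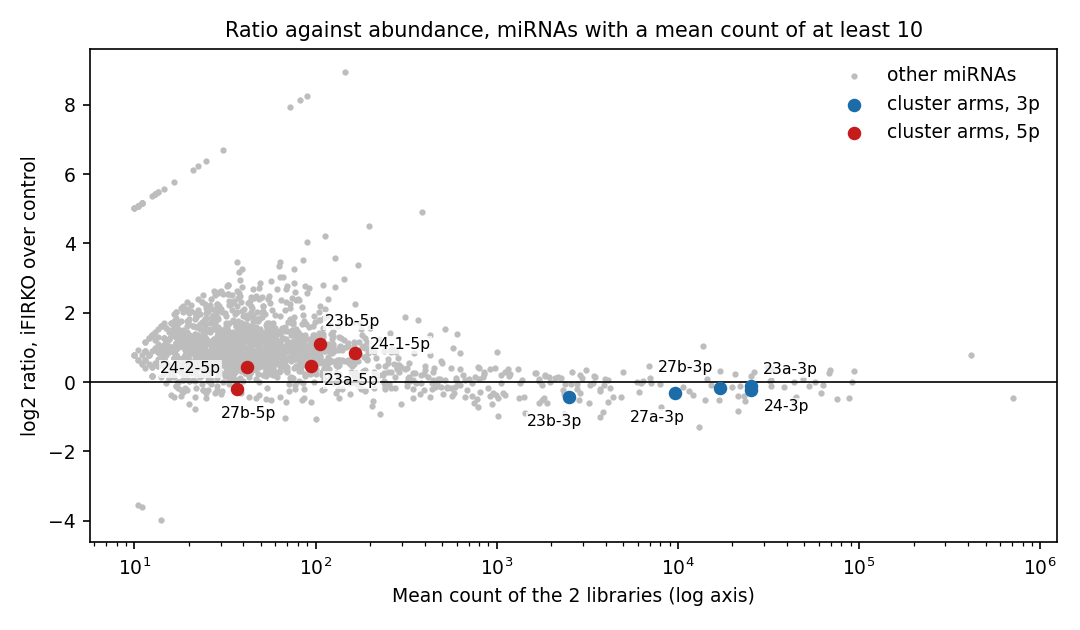
Log2 ratio against the mean count of the 2 libraries on a log axis for all miRNAs whose mean count was 10 or more, with 3p arms in blue and 5p arms in red. The blue points sit in the narrow band of abundant miRNAs just under 0, and the red points sit in or below the cloud of rare miRNAs, whose median is 1.01 for a mean count from 10 to 100, while the grey diagonals far above and below are miRNAs listed at the lowest value, which stands for under 10 counts, in 1 library.

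The quotient of 2 miRNAs within a library does not change with the scaling between libraries, so the arms were next compared within each library. The miR-23 and miR-27 families differed in which paralog was the larger. miR-23a-3p exceeded miR-23b-3p by 9.45-fold in the control library and by 11.6-fold in the iFIRKO library. For the miR-27 family the order was the opposite, with miR-27b-3p exceeding miR-27a-3p by 1.72-fold (1.68 to 1.75) and by 1.88-fold (1.83 to 1.94). miR-23a-3p was 2.49-fold above its cluster neighbour miR-27a-3p in the control library and 2.84-fold above it in the iFIRKO library, whereas in the other cluster miR-27b-3p was 6.52-fold and 7.67-fold above miR-23b-3p. Neighbouring hairpins did not give equal counts in either library. Counts of different sequences also carry the unequal efficiency of ligation and amplification, whose part in these quotients was not tested.

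These quotients differed slightly between the libraries. The quotient of miR-23a-3p to miR-23b-3p was 1.22-fold higher in the iFIRKO library (odds ratio, exact interval 1.15 to 1.30). The quotient of miR-27a-3p to miR-27b-3p was lower there, with an odds ratio of 0.912 (0.878 to 0.947). miR-23a-3p therefore gained on its paralog in the iFIRKO library, while miR-27a-3p, from the same cluster, lost on its own. How reads were divided between paralogs is not given, and its part in these quotients was not tested. The quotient of miR-23a-3p to miR-27a-3p had an odds ratio of 1.14 (1.10 to 1.18) and that of miR-23b-3p to miR-27b-3p an odds ratio of 0.850 (0.797 to 0.907). For the 5p arms, miR-24-1-5p exceeded miR-24-2-5p by 3.47-fold and 4.57-fold, and the interval of their odds ratio included 1. The quotient of miR-23a-5p to miR-23b-5p had an odds ratio of 0.652 (0.431 to 0.984), the opposite direction to the 3p arms of the same hairpins. That of miR-27a-5p to miR-27b-5p was 1.69, with an interval (0.868 to 3.34) that included 1. These odds ratios compare 2 libraries and not the genotypes.

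The 3p arms far exceeded their 5p arms for Mir23a, Mir23b, Mir27a, Mir27b and the pooled Mir24 hairpins, which cannot be separated, and the excess was smaller in the iFIRKO library for all of these but Mir27b. Mir23b gave 36.5 counts of miR-23b-3p for each count of miR-23b-5p in the control library and 12.9 in the iFIRKO library, an odds ratio of 0.353 (0.264 to 0.469). For miR-24-3p against both miR-24 5p arms the quotients were 162 and 81.6, an odds ratio of 0.504 (0.413 to 0.614). Mir27a gave 254 and 138, with 52 and 45 counts of miR-27a-5p, an odds ratio of 0.543 (0.357 to 0.829). Mir23a gave 312 and 207, an odds ratio of 0.662 (0.492 to 0.893). Mir27b stood apart with 462 and 466, an odds ratio of 1.01 (0.611 to 1.71), an interval that overlaps those of Mir23a, Mir27a and miR-24 but not that of Mir23b. Such a shift was common in these tables. Among 55 hairpins with a mean count of 1000 or more for one arm and of 10 to 200 for the other, the rarer arm had the higher ratio in 43, and the median difference over all 55 was 0.69 on the log2 scale. The 55 include Mir23a, Mir23b, Mir27a and Mir27b themselves, all of which but Mir27b are among the 43.

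**Figure D5:**
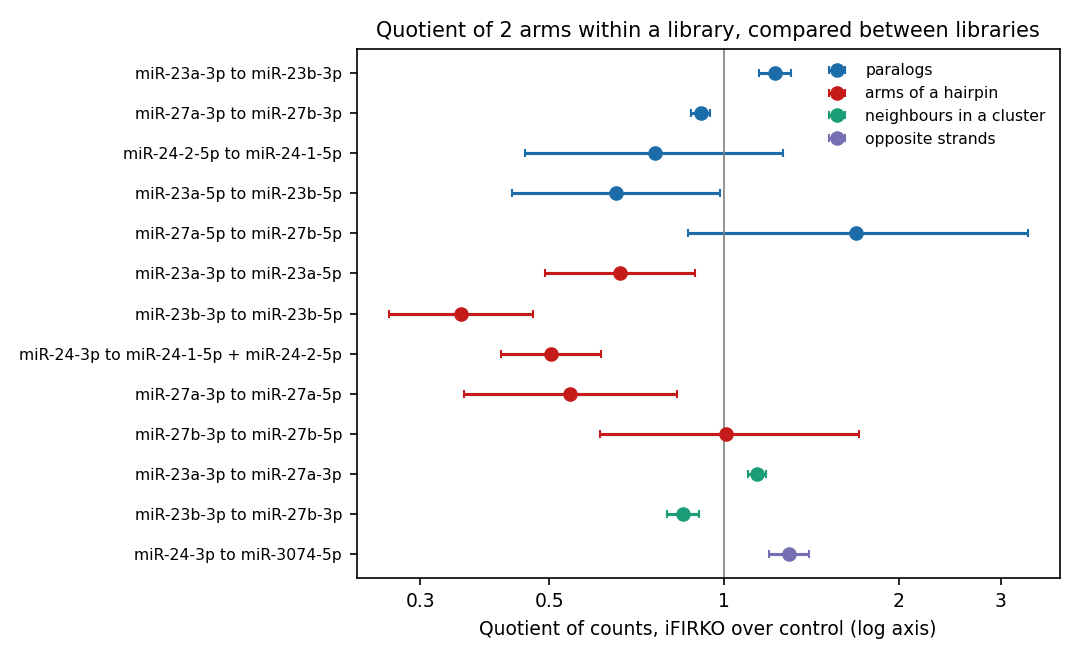
Quotient of 2 miRNAs within a library, compared between the libraries as an odds ratio (iFIRKO over control, log axis) with its exact 95% interval, for 13 pairs coloured by kind. Of the 5 quotients of 3p to 5p arms, 4 lie left of 1 and that of Mir27b is at 1.01. The 3p paralogs of miR-23 and miR-27 lie on opposite sides of 1, at 1.22 and 0.912, and their 5p paralogs lie the other way round, at 0.652 and 1.69.

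The arms kept a similar order of levels, and 4 of the 10 had the same place in both libraries. In the control library it ran miR-24-3p, miR-23a-3p, miR-27b-3p, miR-27a-3p, miR-23b-3p, miR-24-1-5p, miR-23a-5p, miR-23b-5p, miR-27b-5p and miR-24-2-5p. In the iFIRKO library, 3 neighbouring pairs had changed places: miR-23a-3p was above miR-24-3p, miR-23b-5p above miR-23a-5p, and miR-24-2-5p above miR-27b-5p. The exchange of miR-24-3p and miR-23a-3p exceeded counting error on both sides, with miR-24-3p 1.04-fold above (1.02 to 1.05) in the control library and miR-23a-3p 1.05-fold above (1.02 to 1.07) in the iFIRKO library. miR-23a-5p and miR-23b-5p did not differ beyond counting error in the control library (1.11-fold, 0.829 to 1.47), and miR-27b-5p and miR-24-2-5p did not in either library.

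miR-3074-5p, the arm transcribed from the strand opposite miR-24, was examined next, because 20 of its 22 bases lie across from miR-24-3p at both loci.
miR-3074-5p: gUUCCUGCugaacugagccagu
It was counted 2476 times (649 CPM) in the control library against 946 times (424 CPM) in the iFIRKO library, for a ratio of 0.653 (0.605 to 0.704), which was over 1.5-fold lower as deposited but 0.715 with miR-122-5p left out of the depth. miR-24-3p exceeded it by 13.7-fold and 17.8-fold, an odds ratio of 1.29 (1.20 to 1.40), so the antisense arm differed more between the libraries than miR-24-3p did. The other arms of these hairpins were near the limit of the tables. miR-3074-1-3p had 30 and 17 counts, a ratio of 0.969 (0.501 to 1.81), and miR-3074-2-3p was listed under 10 counts in the control library and at 12 counts in the iFIRKO library.

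Other miRNAs with the same seeds were then searched for among the 1596 table names that have a RefSeq sequence. No miRNA among them, other than the members themselves, shared the seed of miR-23a-3p or of miR-27a-3p and miR-27b-3p. The seed of miR-24-3p was shared by miR-5124b, miR-6369, miR-6410 and miR-6413, of which miR-6413 was the most abundant with 107 counts (28.0 CPM) and 116 counts (51.9 CPM), far below miR-24-3p. miR-128-3p, a miRNA known from neurons, starts 1 base further along the same letters as miR-27, sharing the run UCACAGUG from its base 1 where miR-27a-3p has it from base 2.
miR-128-3p: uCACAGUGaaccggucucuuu
It was counted 30444 times (7974 CPM) against 21986 times (9844 CPM), for a ratio of 1.23 (1.21 to 1.26), the opposite direction to the miR-27 3p arms as deposited. With TMM scaling, which put 116 of the 118 abundant miRNAs below 1, its ratio was 0.683. Each scaling multiplies all ratios by 1 factor, so its place above miR-27a-3p and miR-27b-3p could not change.

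By distance in log2 CPM over the 2 libraries, the miRNA nearest to miR-24-3p was miR-23a-3p and the reverse, at a distance of 0.083. The nearest to miR-27b-3p was miR-26a-5p (distance 0.23), the nearest to miR-27a-3p was miR-133a-3p (0.26), and the nearest to miR-23b-3p was miR-15a-5p (0.12). With 2 libraries such likeness says only that levels and ratios were close.

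Lists of other miRNAs were set beside the clusters. As background on the deposited scale, 88.1% of all miRNAs were higher in the iFIRKO library and 11.9% lower. Of the 118 with a mean count over 1000, 48 were higher and 70 lower. Of the 302 from 100 to 1000, 236 were higher and 66 lower. The endothelial list (miR-126a-3p, miR-126a-5p, miR-221-3p and miR-222-3p) was lower in 4 of 4 as deposited, with ratios from 0.684 to 0.963 and a summed level of 39616 CPM in the control library and 28610 CPM in the iFIRKO library. Both smooth muscle miRNAs, miR-143-3p and miR-145a-5p, were lower as well (0.762 and 0.726, summed 8436 and 6405 CPM). The erythroid list was lower in 5 of 5, with ratios from 0.409 to 0.760 and sums of 14121 CPM in the control library and 7982 CPM in the iFIRKO library. It holds the miRNAs that put the labels in doubt, with miR-144-3p at 0.506, miR-451a at 0.409 and miR-486a-3p at 0.549. The 4 liver miRNAs were all higher as deposited, from 1.35 to 1.71, with sums of 120576 and 201930 CPM, although all 4 were below 1 with TMM scaling. The platelet list went both ways (sums 32784 and 28638 CPM). Its ratios were 0.799 for miR-223-3p, 1.03 for miR-199a-3p and 1.22 for miR-151-5p, whose interval (0.965 to 1.53) included 1. Most of its sum was miR-223-3p, with 22136.5 CPM in the control library and 17687.9 CPM in the iFIRKO library. With miR-122-5p left out of the depth, miR-221-3p was at 1.05 and the other endothelial miRNAs stayed below 1. Every miRNA of these lists had over 10 counts in each library. The part of any of these in the levels of miR-23, miR-24 and miR-27 was not tested.

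For adipocyte differentiation, the other known inhibitors on the list, miR-130a-3p and miR-130b-3p, had ratios of 1.10 and 0.898, against 0.803 and 0.880 for miR-27a-3p and miR-27b-3p. The miRNAs known to favour differentiation were higher in 3 of 4 as deposited, with miR-103-3p at 1.05, miR-107-3p at 1.14 and miR-378a-3p at 1.21, and miR-143-3p lower at 0.762. All 4 have a mean count over 1000, a class in which 48 of 118 were higher. None of these 6 passed the 1.5-fold threshold as deposited. miR-143-3p was over 1.5-fold lower after median-of-ratios scaling (0.634) and when scaled to miR-148a-3p (0.655). With TMM scaling all 6 had ratios below 1 and 5 of them were over 1.5-fold lower, where 116 of the 118 abundant miRNAs were below 1.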

How the data were processed

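Small RNA of serum EVs was measured in 2 libraries (QIAseq miRNA kit, NextSeq500), 1 per group. Per the study's methods, the authors used Qiagen's GeneGlobe Data Analysis Center for the reads. The submitters' processing notes name the build mm10. The aligner, the miRNA release and the use of molecular identifiers are not given in the sources used here. The deposited signal is a normalized value per miRNA that sums to just under 1. A scaling constant was started from the lowest value, refined from low to high values and rounded. Multiplied by it, 100% of the values of each library came out whole (tolerance 0.02 counts), which gave whole counts and the depth. The lowest value, at 76 and 35 miRNAs, stands alone below 10 counts and was read as a floor.

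Ratios are iFIRKO over control on the deposited scale. Their intervals come from the Clopper-Pearson interval of the iFIRKO share of both counts, and quotients were compared by conditional odds ratios (scipy 1.17.1), with 95% intervals. PCR counts need not be independent molecules, so intervals cover counting error only. The alternatives were equal totals, the median of ratios, miR-148a-3p, TMM factors (edgeR 4.0.16), a pseudocount of 1 CPM, mean counts of at least 10 or 100, a 2-fold threshold and, added after the data were seen, a depth without miR-122-5p. Functions were tested on simulated data. The members and lists (endothelial, smooth muscle, erythroid, platelet, liver, and adipogenesis inhibitors and promoters) were chosen with earlier results of these data known. Text names follow a rule: the 10 arms, the remaining arm of Mir27a, miR-3074, seed-sharing miRNAs, miR-128-3p, miR-148a-3p and the miRNAs nearest to each 3p arm. The text also names members of these lists, which lie outside that rule. miR-122-5p, one of them, and miR-16-5p, which is on no list, were singled out after their values were seen. The quotients between cluster neighbours and with miR-3074-5p, and the limits for the 55 hairpins, were chosen after the data were seen.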

Additional observations from a re-analysis of the deposited data

How the results depend on the processing

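No paired analysis was possible because only 1 library stands for each group, and no library was left out for the same reason. Equal totals left every ratio of an arm within its counting interval, and so did adding 1 CPM. Setting the floor to 10 counts touched no arm.

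The other scalings multiply every ratio by 1 factor and moved the arms together. In the order miR-23a-3p, miR-23b-3p, miR-24-3p, miR-27a-3p, miR-27b-3p, the ratios were 0.762, 0.622, 0.703, 0.668 and 0.732 after median-of-ratios scaling, 0.787, 0.643, 0.726, 0.689 and 0.756 when scaled to miR-148a-3p, and 0.507, 0.414, 0.467, 0.444 and 0.487 with TMM factors. With TMM factors miR-24-1-5p turned from 1.77 to 0.980, and miR-23b-5p was at 1.17, miR-23a-5p at 0.766, miR-24-2-5p at 0.744 and miR-27b-5p at 0.482. Summed counts had ratios of 0.749, 0.773 and 0.498 (miR-23 3p), 0.708, 0.731 and 0.471 (miR-27 3p), 1.34, 1.39 and 0.894 (5p arms, a reversal) and 0.723, 0.747 and 0.481 (all 10) under the 3 scalings in the same order. With miR-122-5p left out of the depth, an alternative chosen after seeing the data, the 3p arms were at 1.003, 0.819, 0.925, 0.879 and 0.964 in the same order, miR-23 3p at 0.986, miR-27 3p at 0.933 and all 10 at 0.952, and the median log2 ratio was -0.024 for the 10 and 1.01 for all miRNAs.

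Of the 10 arms, 1 was over 1.5-fold higher after median-of-ratios scaling, 0 with TMM factors and 3 with miR-122-5p left out of the depth. Of all 1847 miRNAs, 957, 388 and 1340 were, in the same order. At a 2-fold threshold, 1 of the 10 arms was higher. Of the 10, the number over 1.5-fold lower was 1 after median-of-ratios scaling, 1 when scaled to miR-148a-3p and 6 with TMM factors. Their median log2 ratio, -0.16, was -0.15 with equal totals and with 1 CPM added, -0.42 after median-of-ratios scaling, -0.37 when scaled to miR-148a-3p, -1.01 with TMM factors, and -0.18 at a mean count of at least 100. Of all miRNAs, 388 were over 1.5-fold higher with TMM factors, 145 where the mean count was 100 or more and 794 at 2-fold, and 113, 102 and 360 were lower under the 3 scalings, 24 where the mean count was 10 or more and 18 where it was 100 or more. Their median log2 ratio was 0.89 with equal totals, 0.62, 0.66 and 0.029 under the 3 scalings, 0.81 with 1 CPM added and 0.27 at a mean count of at least 100. The plain ratio of quotients lay within the exact interval for all 13 pairs. Depth limits the 5p arms, with 25 to 169 counts each, most.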
